A study of Homo sapiens with 4 samples.

Results

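miR-192, miR-194, miR-215 and miR-375 are microRNAs (miRNAs) of the intestinal epithelium. The deposited tables list them as 6 mature miRNAs, chosen by name: miR-192-5p, miR-192-3p, miR-194-5p, miR-194-3p, miR-215 and miR-375, out of 2080 names in all, of which 1882 are in every table. Small RNA was sequenced from spheres and parental cells of HT29 and of HCT15, both long-established lines from human colorectal adenocarcinomas. Spheres of both lines were grown in DMEM-F12 with N2 Plus Supplement, bFGF and EGF, and the submitters describe them as sphere-derived cancer stem cells. Parental HT29 cells were kept in DMEM and parental HCT15 cells in RPMI, both with fetal bovine serum, so the parental medium differed between the lines, and in each line medium, serum and growth form changed together. All media held penicillin and streptomycin. Each line and culture had 1 library, 4 in all, with no replicate, so nothing below is a test between spheres and parental cells within a line. Levels are in CPM, a miRNA's share of all miRNA reads listed for its library, so that a share of 15.8% equals 157860.2 CPM. These totals were 12794274 in HT29 spheres, 5806540 in HT29 parental cells, about 2303913 in HCT15 spheres and about 3163397 in HCT15 parental cells. The 95% intervals reflect counting error alone and take each read as an independent draw. PCR reads without molecular identifiers are not independent molecules, so the intervals may be too narrow even for counting error.

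A miRNA is cut from a hairpin precursor, whose 5p and 3p arms can each give a mature strand. Usually 1 arm is loaded into Argonaute and represses messenger RNAs that match its seed, bases 2 to 8, while the other is degraded. miR-192 and miR-215 form a seed family, abundant in gut, liver and kidney epithelium, and high levels of them slow the cell cycle. miR-194 is made from the same transcripts. The tumour suppressor p53 is known to raise the transcription of these clusters. miR-375 is encoded elsewhere, is best known for restraining insulin secretion in pancreatic islets, and is also made in gut epithelium.

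The mature sequences show which of the 6 could silence the same targets and which could share sequencing reads, with the seed in capitals. They and the hairpins below are from RefSeq on GRCh38.p14, where all 6 names were matched, miR-215 and miR-375 as the 5p and the 3p strand of their hairpins.
hsa-miR-192-5p: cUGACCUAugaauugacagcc
hsa-miR-215: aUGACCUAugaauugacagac
hsa-miR-194-5p: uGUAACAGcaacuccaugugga
hsa-miR-375: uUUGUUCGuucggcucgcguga
hsa-miR-192-3p: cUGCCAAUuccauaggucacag
hsa-miR-194-3p: cCAGUGGGgcugcuguuaucug
miR-192-5p and miR-215 share the seed UGACCUA, and no other mature miRNA in the RefSeq table has it. They are identical at 19 of 21 bases and differ, counted from the 5′ end with the base of miR-192-5p given before the position, by C1A and C20A. A read that lacks both ends can thus come from either. The other 4 seeds are each carried by 1 mature miRNA in that table.

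The hairpins show where the arms lie, with mature strands in capitals. miR-192 and miR-194 come from a cluster on chromosome 11, miR-215 and miR-194 from another on chromosome 1, and miR-375 from chromosome 2.
MIR194-2: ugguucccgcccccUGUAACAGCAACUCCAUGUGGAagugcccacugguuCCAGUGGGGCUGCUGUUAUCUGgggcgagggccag
MIR192: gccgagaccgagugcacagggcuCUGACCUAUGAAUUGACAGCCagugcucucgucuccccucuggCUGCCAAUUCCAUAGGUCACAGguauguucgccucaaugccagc
MIR194-1: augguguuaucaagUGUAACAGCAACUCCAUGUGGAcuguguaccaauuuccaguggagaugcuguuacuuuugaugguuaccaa
MIR215: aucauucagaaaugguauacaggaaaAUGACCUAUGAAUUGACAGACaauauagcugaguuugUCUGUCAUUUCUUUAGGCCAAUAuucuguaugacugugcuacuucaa
MIR375: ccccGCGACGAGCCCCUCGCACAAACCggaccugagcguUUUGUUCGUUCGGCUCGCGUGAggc
MIR194-2 (chromosome 11, 64891355 to 64891439) and MIR192 (chromosome 11, 64891137 to 64891246) lie 108 bases apart on the minus strand, both in an exon of the noncoding RNA MIR194-2HG in GENCODE 29. MIR194-1 (chromosome 1, 220118157 to 220118241) and MIR215 (chromosome 1, 220117853 to 220117962) are likewise close together on the minus strand, in no annotated gene of that strand and opposite to an intron of IARS2, which encodes a mitochondrial isoleucyl-tRNA synthetase. MIR375 (chromosome 2, 219001645 to 219001708, minus strand) overlaps no other annotated gene. Both miR-194 hairpins give the same miR-194-5p, so its reads cannot be assigned to a cluster, whereas miR-194-3p is annotated on MIR194-2 alone.

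HT29 was rich in the miR-192, miR-194 and miR-215 group and HCT15 was poor in it, while miR-375 had the opposite order. The 6 miRNAs made up 18.6% of miRNA reads in HT29 spheres and 11.9% in HT29 parental cells, against 1.05% in HCT15 spheres and 1.28% in HCT15 parental cells. All 6 were detected in both HT29 libraries, 4 in HCT15 spheres and 5 in HCT15 parental cells. Over all listed names, HCT15 spheres likewise had the fewest detected, and HCT15 parental cells had fewer than either HT29 library. The lower member counts in HCT15 thus do not by themselves set these 6 miRNAs apart from the rest. In HT29, miR-192-5p accounted for 84.7% of the reads of the 6 in spheres and 77.7% in parental cells. In HCT15, miR-375 took that place, with 68.1% in spheres and 77.0% in parental cells. The lines were deposited in different units and sequenced as single libraries, so the values of the lines are set side by side with no test.

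**Figure D1:**
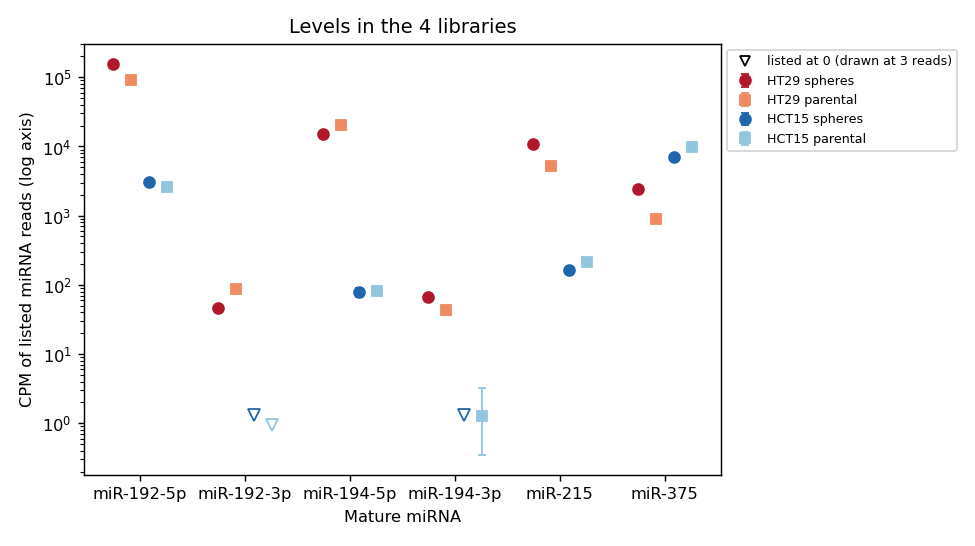
CPM of the 6 mature miRNAs on a log axis in HT29 spheres, HT29 parental cells, HCT15 spheres and HCT15 parental cells; bars are 95% counting intervals, and open triangles mark a miRNA listed at 0, drawn at the level of 3 reads. The HT29 points lie above the HCT15 points for every miRNA but miR-375.

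hsa-miR-192-5p, the main strand of the family, was at 157860.2 CPM in HT29 spheres and 92120.3 CPM in HT29 parental cells, and at 3099.7 CPM in HCT15 spheres and 2639.7 CPM in HCT15 parental cells. It ranked second of all miRNAs in both HT29 libraries, and 44th and 45th in HCT15 spheres and parental cells. The HT29 level was 50.9 times that of HCT15 in spheres and 34.9 times in parental cells.

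hsa-miR-215, its seed relative from the other cluster, was at 10798.5 CPM in HT29 spheres and 5222 CPM in HT29 parental cells, and at 164 CPM in HCT15 spheres and 217 CPM in HCT15 parental cells. Its HT29 level was 65.9 times that of HCT15 in spheres and 24.0 times in parental cells. hsa-miR-194-5p, which both clusters encode, showed the widest gap of the 4 main strands. It was at 15240.5 CPM in HT29 spheres and 20136.1 CPM in HT29 parental cells, but at 78.1 CPM (interval 67.1 to 90.4) in HCT15 spheres and 82.2 CPM (72.5 to 92.8) in HCT15 parental cells. These HT29 levels were 195 and 245 times those of HCT15 in spheres and in parental cells. Within HCT15 the intervals of miR-194-5p in the 2 cultures overlap.

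hsa-miR-375 was at 2424 CPM in HT29 spheres and 896 CPM in HT29 parental cells, and at 7117 CPM in HCT15 spheres and 9859 CPM in HCT15 parental cells. Here HCT15 was higher, by 2.94 times in spheres and 11.0 times in parental cells. miR-375 ranked 23rd and 18th in HCT15 spheres and parental cells, against 48th and 93rd in those of HT29. In HCT15 it was the most abundant of the 6, and miR-192-5p came next.

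The scarce arms were seen mainly in HT29. hsa-miR-192-3p had 590 reads (46.1 CPM) in HT29 spheres and 504 reads (86.8 CPM) in HT29 parental cells, and was listed at 0 in both HCT15 libraries. A count of 0 allows up to 3 reads, which is 1.30 CPM in HCT15 spheres and 0.948 CPM in HCT15 parental cells. The HT29 level of miR-192-3p was thus at least 35.4-fold higher in spheres and at least 91.5-fold higher in parental cells, against that floor per library. hsa-miR-194-3p had 865 reads (67.6 CPM) in HT29 spheres and 248 reads (42.7 CPM) in HT29 parental cells, against 0 reads in HCT15 spheres and 4 reads (1.26 CPM, interval 0.345 to 3.24) in HCT15 parental cells. On the read scale inferred for HCT15, spheres held only 5 miRNAs at exactly 1 read, against 146 in parental cells. If that scale holds, a listed 0 in HCT15 spheres may stand for a dropped single read.

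In HT29, spheres held more miR-192-5p, miR-215, miR-375 and miR-194-3p than parental cells did, while miR-194-5p lay near the middle of all miRNAs and miR-192-3p was on the lower side. Ratios are log2 of spheres over parental cells after TMM scaling, a factor per library that lines up the bulk of the miRNAs, with a prior count of 2 reads. miR-375 had a ratio of 2.02 (interval 1.98 to 2.06), miR-215 of 1.63 (1.61 to 1.65), miR-192-5p of 1.36 (1.36 to 1.36) and miR-194-3p of 1.24 (1.04 to 1.46). miR-194-5p stood at 0.18 (0.17 to 0.19) and miR-192-3p at -0.33 (-0.50 to -0.15). Of the names shared by all 4 tables, the 221 that averaged 50 CPM or more over the HT29 libraries were ordered from the highest ratio. Names listed for 1 line alone, miR-203 among them, are outside this order and the counts made from it. There miR-375 was 10th, miR-215 11th, miR-192-5p 17th, miR-194-3p 20th, miR-194-5p 95th and miR-192-3p 141st.

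Of the 6, 4 were at least 2-fold higher in HT29 spheres and 0 at least 2-fold lower, where the shares among the 221 miRNAs were 12.7% higher and 19.9% lower by that much. The median ratio of the 6 was 1.30, beside 0.01 for all 221. The 6 include arms of the same hairpins and cluster partners, so they are not independent of each other. miR-194-3p passed the minimum of 50 CPM only through spheres, at 67.6 CPM against 42.7 CPM in parental cells. miR-192-3p passed it only through parental cells, at 86.8 CPM against 46.1 CPM in spheres. With total reads in place of TMM, the whole distribution of HT29 shifted, its median to -0.57, and 11 of the 221 were 2-fold or more higher and 73 lower, in place of 28 and 44; with the upper quartile 37 were higher and 33 lower. Over 7 scalings, miR-375 ranged from 1.44 to 2.24 and miR-215 from 1.05 to 1.86, at least 2-fold higher under every scaling. miR-192-5p ranged from 0.78 to 1.58 and miR-194-3p from 0.66 to 1.46, with positive ratios under all 7 and 2-fold differences under 5 and 4 of them. miR-194-5p ran from -0.40 to 0.41, so its sign depended on the scaling, and miR-192-3p from -0.91 to -0.10.

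**Figure D2:**
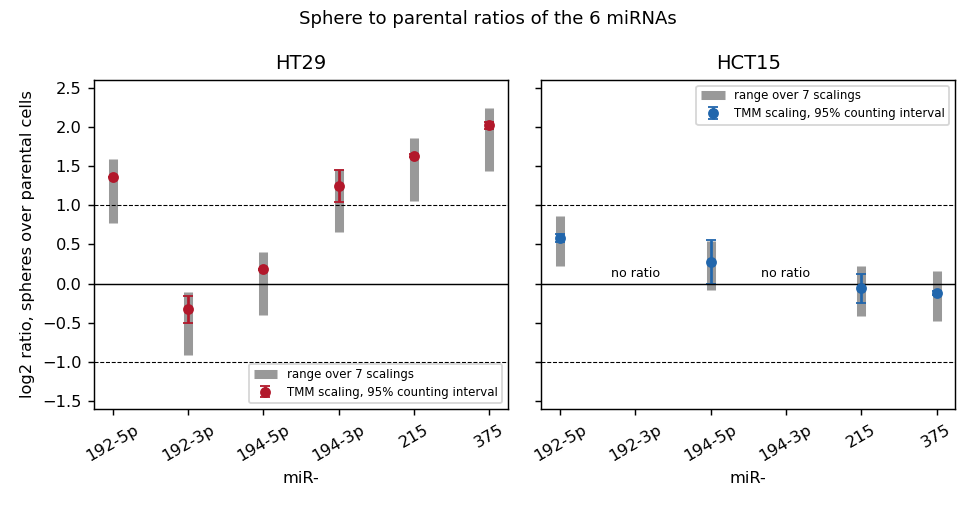
Log2 ratio of spheres over parental cells for the 6 miRNAs in HT29 and HCT15; points are TMM-scaled ratios with 95% counting intervals, grey bars the range over 7 scalings, and dashed lines 2-fold differences. In HT29 the miR-215 and miR-375 bars lie wholly above the upper dashed line, and in HCT15 none of the 4 points drawn reaches a dashed line; miR-192-3p, with no reads, and miR-194-3p, with 0 and 4 reads in spheres and parental cells, have no point there.

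In HCT15 the same comparison gave ratios within 2-fold for each of the 4 miRNAs that both libraries held. miR-192-5p had 7141.5 read equivalents in spheres and 8350.5 in parental cells, a ratio of 0.58 (interval 0.54 to 0.63), positive under all 7 scalings, from 0.23 to 0.86. miR-194-5p had 180 reads in spheres and 260 in parental cells, a ratio of 0.27 with an interval of -0.01 to 0.56 that includes 0. miR-215 had 377.5 read equivalents in spheres and 687.5 in parental cells, a ratio of -0.06 (-0.24 to 0.13). miR-375, with 16398 reads in spheres and 31188 in parental cells, had a ratio of -0.12 (-0.15 to -0.09). The signs for miR-194-5p, miR-215 and miR-375 changed with the scaling, with miR-375 between -0.47 and 0.16.

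Of the 4, 0 were at least 2-fold higher and 0 lower in HCT15 spheres, where, of 201 miRNAs of the shared names averaging 50 CPM or more, 3.98% were higher by that much and 1.99% lower. Their median ratio was 0.11, beside 0.08 for all 201. The split of all miRNAs, 8 higher and 4 lower, was 5 and 21 with total reads and 19 and 1 with the upper quartile. Of the other members, miR-192-3p had no reads, and the 0 and 4 reads of miR-194-3p in spheres and parental cells gave an upper interval limit of 1.41, so no difference was detectable at this depth. The HT29 ratio exceeded the HCT15 ratio by 2.14 for miR-375, 1.69 for miR-215 and 0.78 for miR-192-5p on the log2 scale, whereas for miR-194-5p it was lower by 0.09. With 1 library per group these differences between the lines were not tested.

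**Figure D3:**
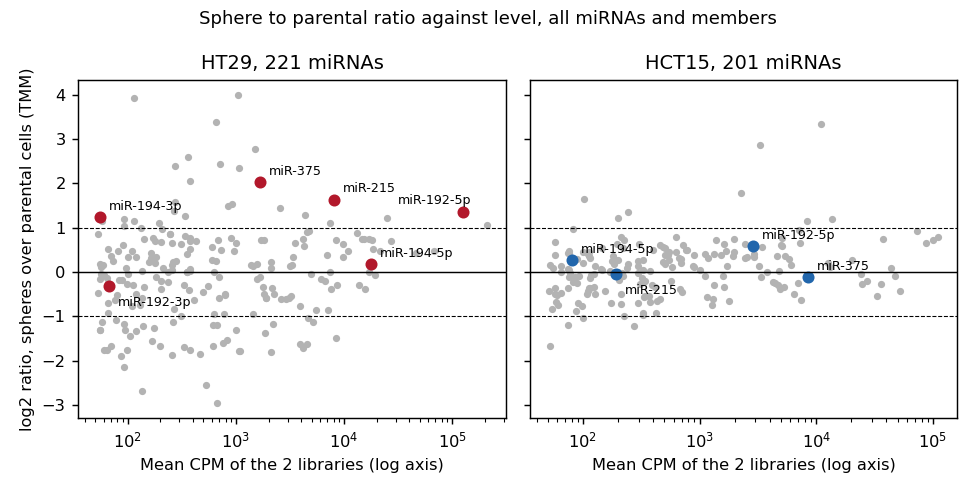
Log2 ratio of spheres over parental cells (TMM scaling) against the mean CPM of the line's libraries on a log axis, for the 221 miRNAs of HT29 and 201 of HCT15 that averaged 50 CPM or more; the named miRNAs are coloured. In HT29 miR-192-5p, miR-215, miR-375 and miR-194-3p lie above the dashed line of a 2-fold difference, and in HCT15 all 4 lie between the dashed lines.

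Across both lines, with the lines as the only replicates, no member passed the test of spheres against parental cells. limma with cell line as a block called 0 of 377 miRNAs at a Benjamini-Hochberg adjusted p under 0.05 (0% called), and 21 of them (5.57%) had an unadjusted p under 0.05; edgeR's quasi-likelihood test also called 0, with 21 at that unadjusted p, and DESeq2 called 6, with 22. No member was among those calls. miR-192-5p, higher in spheres of both lines, was among the 21, with a log2 fold change of 0.97 (SE 0.32, limma adjusted p = 0.748). Its adjusted p ranged from 0.189 to 1 over 9 alternatives. miR-375 had 0.95 (SE 0.64, limma adjusted p = 0.757) and miR-215 had 0.79 (SE 0.57, limma adjusted p = 0.757), each resting on a high ratio in HT29 and a ratio near 0 in HCT15. miR-194-5p had 0.23 (SE 0.38), miR-192-3p -0.16 (SE 0.34) and miR-194-3p 0.05 (SE 0.69). Both 3p strands reached the 10 CPM required in 2 libraries through HT29 alone. In HCT15 spheres and parental cells miR-192-3p had 0 and 0 reads and miR-194-3p 0 and 4. Their values therefore do not estimate a change in both lines. Nothing in the labels says that a line's spheres were grown more than once. These p-values thus rest on how far the change from parental cells to spheres differed between 2 lines. They also borrow variance from the other miRNAs tested.

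Ratios between miRNAs of the same library do not depend on the scaling between libraries, and they showed the miR-194-5p strand parting from its cluster partners in HT29. For every 100 reads of miR-192-5p and miR-215 together, miR-194-5p had 9.04 reads in HT29 spheres (interval 8.99 to 9.08) and 20.7 in HT29 parental cells (20.6 to 20.8). The log2 change was -1.19 (-1.21 to -1.18). In HCT15 the corresponding values were 2.39 (2.05 to 2.78) in spheres and 2.88 (2.53 to 3.25) in parental cells, a log2 change of -0.26 with an interval of -0.55 to 0.02. Both HCT15 libraries thus lay below both HT29 libraries.

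The miR-215 cluster and the miR-192 cluster can be set against each other through their seed-sharing strands. miR-215 had 6.84 reads per 100 reads of miR-192-5p in HT29 spheres and 5.67 in HT29 parental cells, a log2 change of 0.27 (interval 0.25 to 0.29). It had 5.29 in HCT15 spheres and 8.23 in HCT15 parental cells, a log2 change of -0.64 (-0.83 to -0.45). The direction thus differed between the lines, and miR-192-5p exceeded miR-215 more than 10-fold in all 4 libraries. The HCT15 values of both were whole numbers of reads plus a fraction of 0.5, as a read divided between 2 names would give. How reads that match both were counted in either line is unstated in the labels and file headers, and their part in these ratios was not tested.

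miR-375 changed its standing against the miR-192 family in opposite directions too. In HT29 the log2 change of miR-375 over miR-192-5p plus miR-215 was 0.64 (interval 0.60 to 0.69), and in HCT15 it was -0.66 (-0.71 to -0.61). There were 1.44 miR-375 reads per 100 reads of the family in HT29 spheres and 0.921 in HT29 parental cells, against 218 in HCT15 spheres and 345 in HCT15 parental cells.

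**Figure D4:**
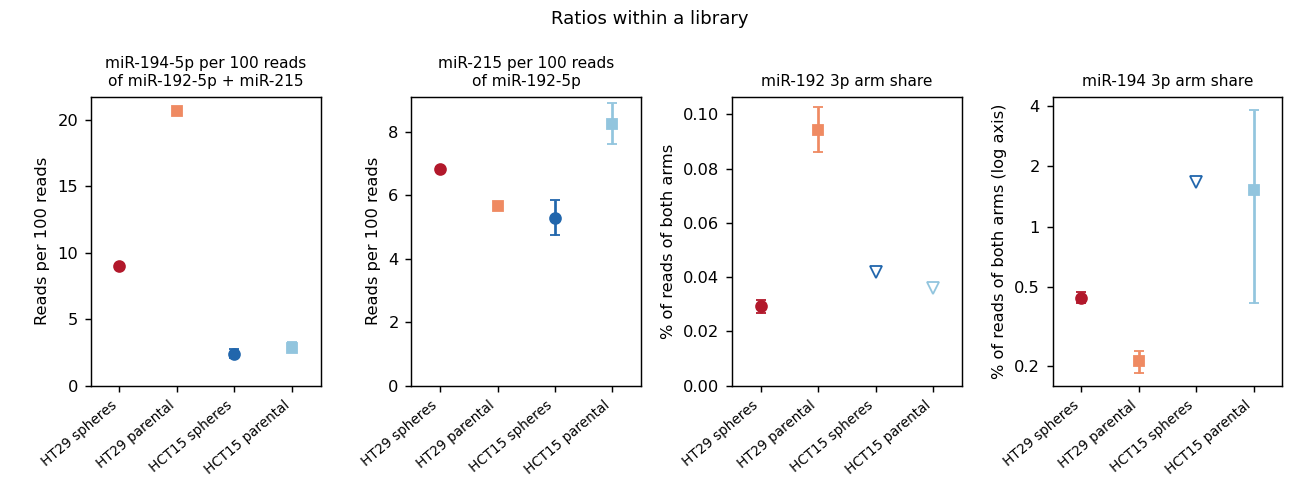
Within each of the 4 libraries, miR-194-5p reads per 100 reads of miR-192-5p plus miR-215, miR-215 reads per 100 reads of miR-192-5p, and the share of the 3p arm in the reads of both arms of miR-192 and of miR-194 (the last on a log axis); bars are 95% counting intervals and open triangles the share that a count of 0 allows. In HT29 spheres the miR-192 3p share lies below, and the miR-194 3p share above, that of HT29 parental cells.

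The 5p arm dominated both miR-192 and miR-194, and in HT29 the small 3p shares moved in opposite directions. miR-192-3p was 0.0292% of miR-192 reads in HT29 spheres (interval 0.0269 to 0.0317) and 0.0941% in HT29 parental cells (0.0861 to 0.103). The ratio of the 5p to the 3p arm was 3423 in spheres and 1061 in parental cells, a log2 change of 1.69 (1.52 to 1.86). For miR-194 the 3p arm held 0.442% in HT29 spheres (0.413 to 0.472) and 0.212% in HT29 parental cells (0.186 to 0.240). The 5p to 3p ratio of miR-194 was 225 in spheres and 471 in parental cells, a log2 change of -1.06 (-1.27 to -0.86). Because MIR194-1 has no annotated 3p strand, reads of miR-194-3p are those of the chromosome 11 cluster, while reads of miR-194-5p mix both clusters.

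The 3p strands of the chromosome 11 cluster alone, miR-194-3p over miR-192-3p, had a ratio of 1.47 in HT29 spheres (interval 1.32 to 1.63) and 0.492 in HT29 parental cells (0.421 to 0.574). The log2 change was 1.57 (1.30 to 1.85), opposite in sign to that of miR-194-5p over its 5p partners. In HCT15 the miR-192 3p share was 0 of 7141.5 read equivalents in spheres and 0 of 8350.5 in parental cells, which allows up to 0.0420% and 0.0359%. Both limits lie below the share in HT29 parental cells and above that in HT29 spheres. The miR-194 3p share in HCT15 was 0 of 180 reads in spheres, which allows up to 1.67%, and 1.52% in parental cells (0.414 to 3.83), where it rested on 4 reads.

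The miRNAs with profiles most like those of the members over the 4 libraries were found by the distance between centred log2(CPM + 1) values, each set against 238 others that averaged 50 CPM or more. This likeness rests largely on the gap between the lines and is a description. miR-192-5p and miR-215 were each other's nearest, at a distance of 0.50 log2 units, followed for both by miR-24-3p (0.54 from miR-192-5p and 0.82 from miR-215) and miR-224-5p (0.93 and 1.09). For miR-24-3p the levels were 28603.6 CPM in HT29 spheres and 26278 CPM in HT29 parental cells, against 561 CPM in HCT15 spheres and 525 CPM in HCT15 parental cells. miR-194-5p was nearest to miR-338-5p (0.26), miR-185-5p (0.50) and miR-598 (0.67), each at 5.06 CPM or lower in both HCT15 libraries. In HCT15 spheres and parental cells miR-338-5p was at 0.868 and 0.632 CPM and miR-598 at 0 and 0.316 CPM. These lie below the level of 3 reads, so their distances depend on the added 1 CPM. miR-194-5p was 37th of 238 in order of likeness to miR-192-5p. In likeness to miR-194-5p, miR-192-5p was 16th and miR-215 17th. miR-375 was nearest to miR-744-5p (0.70), miR-30d-3p (0.85) and miR-28-3p (0.90), which were also higher in HCT15 than in HT29.

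Other miRNA groups linked to these by regulation or cell type were followed in the same libraries. Of 10 p53-linked miRNAs, 2 reached a mean of 50 CPM in HT29 and 1 in HCT15. With TMM scaling 0 of them differed 2-fold, where 12.7% of all miRNAs were higher and 19.9% lower by that much in HT29, and 3.98% and 1.99% in HCT15. miR-107 was at 1345 CPM in HT29 spheres and 1779 CPM in HT29 parental cells, and at 505 CPM in HCT15 spheres and 498 CPM in HCT15 parental cells. miR-34a-5p, the best-known p53-induced miRNA, was at 51.0 CPM in HT29 spheres and 109 CPM in HT29 parental cells, a ratio of -0.51 (-1.09 with total reads, past 2-fold), and at 9.55 and 12.6 CPM in HCT15 spheres and parental cells. miR-143-3p, also on the stromal list, did not exceed 6.10 CPM.

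Of the endocrine-cell list, included because miR-375 is an islet miRNA, the miR-7 strands were lower in HT29 spheres, where miR-375 was higher. miR-7-5p was at 1006 CPM in HT29 spheres and 3415 CPM in HT29 parental cells (ratio -1.18), and miR-7-1-3p at 32.4 CPM in spheres and 164 CPM in parental cells (ratio -1.76). In HCT15, where miR-375 was higher, miR-7-5p was at 8.58 CPM in spheres and 9.37 CPM in parental cells. There miR-7-1-3p was higher than miR-7-5p, at 37.8 CPM in spheres and 49.9 CPM in parental cells. miR-9-5p lay between 8.22 and 13.9 CPM in all 4 libraries, with a ratio of 0.44 in HT29, on the same side as miR-375 (-0.14 with total reads), and of 1.04 in HCT15 (0.71 with total reads). Of the 6 miRNAs on the list, 2 reached a mean of 50 CPM in HT29, and 0 in HCT15. With TMM scaling those 2, both strands of the miR-7 family, were at least 2-fold lower in spheres, as were 19.9% of all miRNAs in HT29. Over the 7 scalings miR-7-5p ran from -1.76 to -0.96 there.

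The list of other epithelial miRNAs had a summed level of 65479.8 CPM in HT29 spheres, 75950 CPM in HT29 parental cells, 25193 CPM in HCT15 spheres and 19484 CPM in HCT15 parental cells. Of 8, 7 reached a mean of 50 CPM in each line. In HT29 2 were at least 2-fold higher in spheres and 1 lower, beside 12.7% higher and 19.9% lower among all miRNAs. In HCT15 1 was higher and 0 lower, beside 3.98% higher and 1.99% lower among all. The eighth, miR-205-5p, named after its values were seen, was scarce. It had 97 reads in HT29 spheres and 222 in HT29 parental cells (ratio -1.73), and 170 reads in HCT15 spheres and 6 in HCT15 parental cells (ratio 5.13). miR-200c-3p, a brake on epithelial-mesenchymal transition, had ratios of 0.72 in HT29 and 0.38 in HCT15, and miR-200b-3p of the same family had -0.29 and 0.58. With total reads miR-200c-3p stood at 0.14 in HT29 and 0.03 in HCT15, and miR-200b-3p at -0.87 and 0.23. miR-31-5p, a miRNA raised in many colorectal tumours, was the lower one in HT29 at -1.49 and the higher one in HCT15 at 1.14 (0.79 with total reads). The other 2 in HT29, miR-141-3p (1.10) and miR-203 (1.33, listed as miR-203a in HCT15), were named after their values were seen. With total reads they stood at 0.52 and 0.75. Liver markers were at or near 0: of 3, miR-122-5p reached 8 reads in HT29 spheres and 1 read in HT29 parental cells and the others had 0 reads in all 4 libraries. The stromal list summed to between 7.43 and 20.95 CPM over the 4 libraries, with miR-199a-3p the highest on average and miR-214-3p at 0 reads in all 4. The blood-cell list summed to 476 CPM in HT29 spheres and 464 CPM in HT29 parental cells, mostly miR-142-3p, and to 63.4 CPM in HCT15 spheres and 59.7 CPM in HCT15 parental cells, mostly miR-486-5p, with miR-223-3p at 0 reads in all 4. miR-142-5p, at 106 CPM in HT29 spheres and 77.3 CPM in HT29 parental cells, had a ratio of 1.03 (0.45 with total reads). The part of such signals in the members' values was not tested.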

How the data were processed

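Per the labels' protocols, small RNA libraries were made from total RNA with a TruSeq kit. For HT29 the authors deposited raw read counts per mature miRNA, and for HCT15 RPKM values, per the file headers, which name miRBase release 19. The submitters' processing notes name hg19 as the build. How reads were trimmed, aligned and shared between names is not given in the sources used here.

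The HCT15 values were turned into reads from the steps between low values. A read was worth 0.162 in parental cells and 0.263 in spheres for a miRNA of 22 bases, multiplied by its length over its length plus up to 4 bases of hairpin on the 5′ and 5 on the 3′ side. Within 0.02 reads, 80.7% of 404 and 75.9% of 162 low values in parental cells and spheres were then whole, against 46.8% and 38.9% with the same value for every miRNA. In spheres the commonest low value, of 17 names, was taken as 2 reads, since 2 names lay at 1 read and 5 at 3 reads. In parental cells 2 names lay at 0.5 reads as well, and the commonest value was taken as 1 read. The read numbers, floor and counting intervals of HCT15 spheres rest on this choice. For 517 names with no RefSeq length, 22 bases were assumed. Within HCT15 the length term touches a miRNA's ratio through the scaling alone, but HCT15 levels set against HT29 are approximate. No sequence or position was moved to or from hg19.

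Comparisons across lines used the 1882 names in all 4 files. Within a line, log2 ratios used TMM scaling over the 4 libraries and a prior count of 2, with exact conditional binomial 95% intervals; shares have exact Clopper-Pearson intervals, and changes of ratios within a library, with 0.5 added to each count, have conditional odds-ratio intervals, or a large-count form of them where counts are high (Python 3.11.15, numpy 2.4.6, pandas 2.3.3, scipy 1.17.1). Across lines, limma 3.58.1 in R 4.3.3 was fitted on log2(CPM + 1) with a mean-variance trend for the 377 miRNAs that reached 10 CPM in 2 or more libraries, so a fold change understates that of scarce miRNAs; the block is the cell line that both cultures share. The fit has 1 residual degree of freedom. edgeR 4.0.16 and DESeq2 1.42.0 on reads, other scalings, prior counts, pseudocounts and filters were alternatives. limma was also run on simulated data with planted changes of equal size in both lines. That run does not cover miRNAs whose ratios differ between the lines. Adjusted p-values (Benjamini-Hochberg) are over all miRNAs tested.

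The members, lists and tests were chosen with earlier results of these data known. Named were all 6 members, up to 3 of the most abundant of each list, and the 3 miRNAs most like each main strand.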

Additional observations from a re-analysis of the deposited data

Results flagged for a closer look

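The sphere to parental ratio of miR-375 had opposite signs in the 2 lines, at 2.02 in HT29 and -0.12 in HCT15, each with a counting interval that excludes 0. The HCT15 sign changed with the scaling, and the difference between the lines was not tested. Within-library ratios, which need no scaling, also moved in opposite directions: miR-215 over miR-192-5p by a log2 change of 0.27 in HT29 and -0.64 in HCT15, and miR-375 over miR-192-5p plus miR-215 by 0.64 in HT29 and -0.66 in HCT15. These too rest on 1 library per group and were not tested.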

How the results depend on the processing

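The count of 4 members at least 2-fold higher in HT29 spheres was 2 with total listed reads and 2 when scaled without the 6 members. In both, miR-192-5p and miR-194-3p fell short of 2-fold. Without the 10 most abundant miRNAs the count was 3. Of all 221 miRNAs, 28 were that much higher with TMM, 11 with total reads, 14 without the 6 members and 17 without the 10 most abundant. In the same order, 44, 73, 65 and 54 were at least 2-fold lower. With no minimum level, 1 of 5 members, miR-194-3p, was at least 2-fold lower in HCT15, from 0 reads in spheres and 4 in parental cells. In that setting 200 of all 927 miRNAs were at least 2-fold lower and 51 higher. limma called 0 miRNAs across lines, against 3 with the upper quartile and 6 with DESeq2 on reads, none of them a member. With no replicate block limma called 0 as well, and 0 had an unadjusted p under 0.05; pairing rests on the shared cell line. No 2-fold member ratio changed sign over the alternatives, of which 1, an equal value per read for every HCT15 miRNA, was chosen after seeing the data. Leaving out a library was not possible with 1 per group. Depth limits the 3p arms in HCT15, where a count of 0 allows 1.30 CPM in spheres and 0.948 CPM in parental cells.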
